A study of Mus musculus with 12 samples.

Results

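The response of MC3T3 sc4 cells to 6 days of BMP2 at 10 ng/ml was taken from 4 of the 12 libraries of the series. They form 2 matched pairs: BMP2 against the vehicle culture, and BMP2 together with GSK126 against GSK126 alone. The libraries were chosen by their day 6 labels, and a change was kept where both pairs agreed. MC3T3 sc4 is a mouse pre-osteoblast line derived from calvaria, the flat bone of the skull, and is 1 clone. GSK126 is a small-molecule inhibitor of EZH2, the enzyme that places the repressive histone mark H3K27me3. In the series, cells at passage 12 were cultured in osteogenic medium for 1 or 6 days with BMP2 at 0, 10 or 50 ng/ml, each with or without 5 µM GSK126, and polyadenylated RNA was sequenced. Each of these conditions was sequenced as 1 library, so the 4 day 6 libraries used here are vehicle (no BMP2, no GSK126), 10 ng/ml BMP2, 5 µM GSK126, and both agents. The pairs therefore stand in for replicates: they share no library, and what differs between them is the GSK126 background as well as the culture.

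BMP2 is a secreted ligand of the TGF-beta superfamily. It binds type I and type II serine/threonine kinase receptors, which phosphorylate SMAD1, SMAD5 and SMAD9; with SMAD4 these enter the nucleus and switch on genes such as the Id family and the inhibitory SMADs. In cells of the osteoblast lineage the pathway acts upstream of the transcription factors RUNX2, SP7 (osterix) and DLX5, and over days the cells make a collagen-rich matrix that is mineralized with the help of IBSP, osteocalcin (Bglap) and alkaline phosphatase. Extracellular antagonists such as noggin and gremlin bind the ligand and limit the signal.

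The 4 libraries held between 80991486 and 106083584 counts, and every deposited count was an even number. Counts are therefore also given below as read pairs, which is the count divided by the number of mates in a pair. The ribosomal precursor transcript Rn45s took 13.5% to 17.2% of the counts of a library. Osteoblast lineage markers were present in all 4 libraries: in vehicle cells Col1a1 was at 27700 CPM (CPM scaled by edgeR's TMM factors, that is the count relative to the library's total, is the scale used throughout unless RPKM is named), Runx2 at 241 CPM and Sp7 at 93.3 CPM. Ezh2 itself, the target of GSK126, is inhibited as a protein, so its RNA does not check the label. It was at 45.1 CPM with vehicle, 37.6 CPM with BMP2, 33.9 CPM with GSK126 and 32.4 CPM with both agents, a BMP2 difference of -0.17 ± 0.09 on the log2 scale (SE, adjusted p = 0.39).

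With 10 ng/ml BMP2, more genes fell than rose by day 6. A gene entered the test if 2 or more of the 4 libraries reached 1 CPM. Of 11686 such genes, 214 (1.83%) passed an adjusted p of 0.05, 61 of them higher (0.522%) and 153 lower (1.31%). The test was edgeR's quasi-likelihood test with GSK126 as a covariate and Benjamini-Hochberg adjustment over all tested genes, and the same test gives each adjusted p below. A gene is called here, and is said to have risen or fallen, only if it passed. All 214 called genes moved in the same direction in both pairs. The test favours this, since its spread comes from the disagreement of the pairs. edgeR draws each gene's spread toward a trend over genes, so an SE is not that gene's own disagreement alone. The median log2 fold change was 1.00 among the higher genes and -1.17 among the lower genes, and 30 higher and 95 lower genes changed by at least 2-fold. In bulk RNA, fewer cells of a kind and less RNA per cell cannot be told apart. The fit has 1 residual degree of freedom, so these counts depend on which libraries set the spread. Adding the 2 libraries of 50 ng/ml left 1 higher and 10 lower genes, while adding the 4 matching day 1 libraries gave 762 and 972, and DESeq2 on the same 4 libraries gave 396 and 543.

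**Figure D1:**
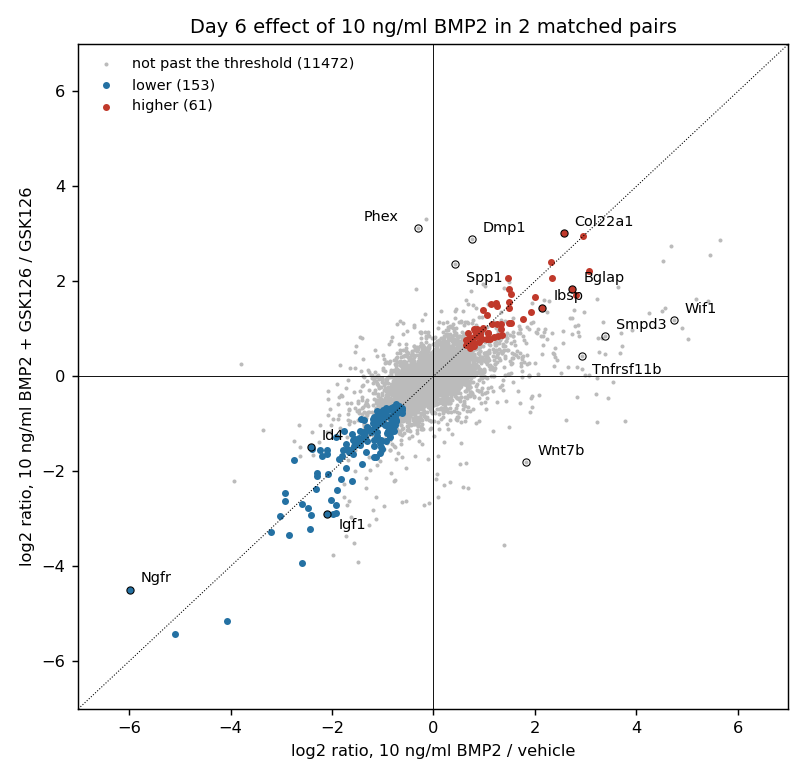
Log2 ratio of 10 ng/ml BMP2 over no BMP2 on day 6, without GSK126 (x axis) and with GSK126 (y axis), for the 11686 tested genes, 1 point per gene, with called genes coloured and some genes named. The 61 higher genes lie in the upper right and the 153 lower genes in the lower left, and the correlation over all genes was 0.59.

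The pairs agreed in part. Across the 11686 genes the log2 ratios of the pairs had a Pearson correlation of 0.59 and a Spearman correlation of 0.52, as a description only, since genes are not independent replicates. The ratio had the same sign in 67.9% of genes: 3916 (33.5%) were higher with BMP2 in both pairs and 4017 (34.4%) lower. The pair without GSK126 was the wider, with an SD of 0.51 across genes against 0.42 with GSK126. At least 2-fold higher were 281 genes without GSK126 and 118 with it, of which 69 were shared (0.59% of tested genes), that is 24.6% of the first list and 58.5% of the second. At least 2-fold lower were 300 and 241 genes, with 137 shared (1.17%), 45.7% and 56.8% of the lists. Of the shared genes, 26 higher and 79 lower genes were also called by the test. Only 4 genes moved at least 2-fold in opposite directions: Zap70, Krt36, Wnt7b and Gpr44. Wnt7b, a Wnt ligand, was at 3.57 CPM with vehicle and 12.7 CPM with BMP2, but at 5.89 CPM with GSK126 and 1.68 CPM with both. Whether the response differs by GSK126 cannot be tested with 4 libraries.

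In a panel of 18 osteoblast and BMP genes, the called genes were Bglap and Ibsp, which were higher, and Ngfr and Igf1, which were lower. Their proximal promoters are shown because the RNA of each gene differed several-fold with BMP2 in both pairs. Each window is the 250 bases before the transcription start, 5′ to 3′ on the gene's strand, from RefSeq on GRCm38.p6, the patch release of mm10, the build the submitters name. Capitals mark exact matches, on either strand, to the RUNX core ACCACA (reverse complement TGTGGT), the GC-rich SMAD site GGCGCC, which is its own reverse complement, or the TATA box TATAAA (reverse complement TTTATA). No match overlapped another in the windows shown. The Bglap window is chr3:88384467-88384716 on the minus strand, upstream of the gene at chr3:88383495-88384464. The Ibsp window is chr5:104299037-104299286 on the plus strand, upstream of the gene at chr5:104299287-104311472. The Ngfr window is chr11:95587699-95587948 on the minus strand, upstream of the gene at chr11:95568821-95587698. The Igf1 window, chr10:87860861-87861110 on the plus strand, lies before 1 of its transcript starts, within the gene's span of chr10:87859056-87937047.
Bglap: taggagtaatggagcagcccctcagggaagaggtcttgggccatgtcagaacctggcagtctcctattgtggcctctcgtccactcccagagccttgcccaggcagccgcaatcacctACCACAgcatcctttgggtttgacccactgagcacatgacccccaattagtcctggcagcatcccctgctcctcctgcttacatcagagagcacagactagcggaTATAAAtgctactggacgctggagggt
Ibsp: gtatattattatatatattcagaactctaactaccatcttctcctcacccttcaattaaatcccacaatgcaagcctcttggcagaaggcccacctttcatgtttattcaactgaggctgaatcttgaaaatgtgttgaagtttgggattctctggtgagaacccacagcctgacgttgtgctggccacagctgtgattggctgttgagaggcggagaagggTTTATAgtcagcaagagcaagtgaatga
Ngfr: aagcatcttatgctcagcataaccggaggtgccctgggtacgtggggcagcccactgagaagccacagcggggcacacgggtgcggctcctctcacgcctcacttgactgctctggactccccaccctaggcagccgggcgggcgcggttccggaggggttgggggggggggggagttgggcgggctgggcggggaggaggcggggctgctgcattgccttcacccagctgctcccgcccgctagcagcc
Igf1: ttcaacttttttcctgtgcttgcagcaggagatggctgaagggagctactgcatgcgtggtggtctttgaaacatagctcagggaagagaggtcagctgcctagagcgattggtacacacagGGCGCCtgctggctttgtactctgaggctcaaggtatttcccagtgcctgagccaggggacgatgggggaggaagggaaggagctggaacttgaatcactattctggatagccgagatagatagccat

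The Bglap window held a RUNX core 132 bases before the start and a TATA box 27 bases before it. The Ibsp window held a TATA box, read on the opposite strand, 28 bases before the start and no exact ACCACA. The Igf1 window held 1 GGCGCC, and the Ngfr window none of the 3 motifs. Over all 32851 promoter windows of this length in the table, 14.0% held ACCACA, 9.59% GGCGCC and 12.4% TATAAA. Among 51 windows of 44 called higher genes the shares were 19.6%, 19.6% and 11.8%, and among 142 windows of 100 called lower genes 7.04%, 16.9% and 7.75%. These shares are descriptions of the letters in the windows, and a match is not a binding site.

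Bone matrix genes were mostly higher with BMP2. Of 19 genes of bone matrix and mineralization 18 were tested, and their median log2 fold change was 1.20 beside a median of 0 over all tested genes. Higher in both pairs were 14 of the 18, and 2 passed the test, Bglap and Ibsp (11.1%, beside 0.522% of all genes in that direction). The gene lists here and below were chosen with earlier results of these data known, so their shares are descriptions only. DESeq2 called 7 higher and 1 lower, Alpl and Col1a1 among the higher (adjusted p = 0.0042 and 0.011 in DESeq2). The products of Bglap and Ibsp are deposited late in osteoblast maturation, osteocalcin binding calcium in the mineral and bone sialoprotein nucleating it.

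Bglap was at 4.43 CPM with vehicle and 29.6 CPM with BMP2, and at 61.4 CPM with GSK126 and 219 CPM with both. Every BMP2 library was above its partner, and GSK126 alone was above BMP2 alone. The log2 fold change was 2.27 ± 0.24 (SE, adjusted p = 0.039), with 2.74 in the pair without GSK126 and 1.84 with it. In RPKM, the authors' value relative to gene length and library depth, it ran from 5.77 with vehicle to 275 with both agents. Bglap2, a near-identical neighbouring copy, was at 1.78, 2.99, 21.3 and 74.5 CPM in the same order and did not pass (adjusted p = 0.086). Reads of these 2 copies may be split between them by the counting, so the level of either is uncertain.

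Ibsp was at 235 CPM with vehicle, 1040 CPM with BMP2, 1310 CPM with GSK126 and 3580 CPM with both. The order of the libraries was the same as for Bglap, and the 3 treated libraries were all above vehicle. The rise was 1.80 ± 0.22 on the log2 scale (adjusted p = 0.048). With a filter of 5 CPM in place of 1 CPM, Ibsp had an adjusted p of 0.050, above the threshold before rounding, and no longer passed.

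**Figure D2:**
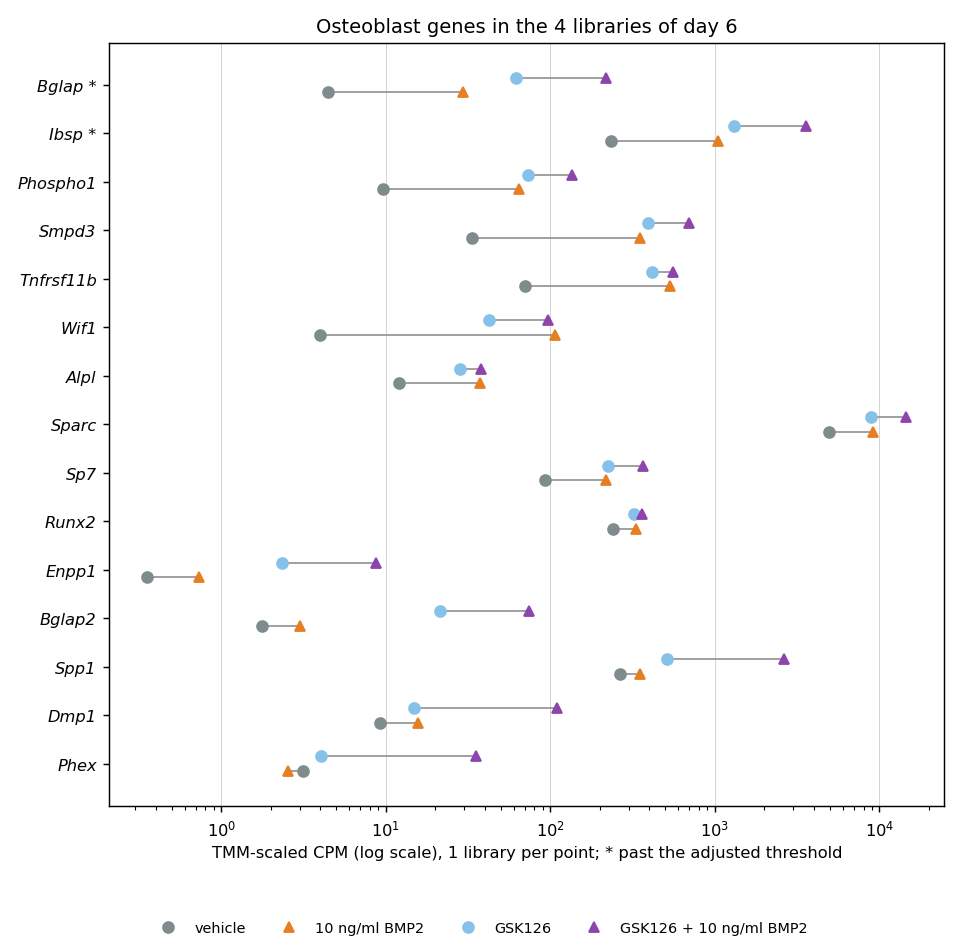
TMM-scaled CPM (x axis, log scale) for 15 osteoblast genes in the 4 day 6 libraries, 1 point per library and no replicates, with a line joining each library without BMP2 to its BMP2 partner and a star on called genes. Ibsp and Bglap shift right in both pairs, while Phex and Spp1 were far higher only in the library with both agents, at 35.5 and 2640 CPM.

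Other mineralization genes differed in how the pairs split. Smpd3, a sphingomyelinase needed for skeletal mineralization, was at 33.6 CPM with vehicle and 351 CPM with BMP2, a log2 ratio of 3.39, against 390 and 697 CPM in the GSK126 pair, a ratio of 0.84. Phospho1, a phosphatase of matrix vesicles, had a similar split, with 9.56 and 64.2 CPM without GSK126 and 72.9 and 136 CPM with it. For Alpl, which encodes tissue-nonspecific alkaline phosphatase, the log2 ratios were 1.62 and 0.44 (12.1 and 37.4 CPM, then 28.1 and 38.0 CPM). In these 3 genes GSK126 alone already gave more RNA than vehicle, and the BMP2 step on top of it was the smaller. None of them passed the test (adjusted p = 0.19, 0.14 and 0.17).

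A second set had its larger step in the GSK126 pair. Dmp1, a phosphoprotein of the osteocyte matrix, was at 9.27, 15.7 and 14.9 CPM in the vehicle, BMP2 and GSK126 libraries and at 110 CPM with both. Phex, a membrane peptidase of osteoblasts and osteocytes, was at 3.15, 2.54, 4.03 and 35.5 CPM. Spp1, osteopontin, was at 264, 352 and 512 CPM and then 2640 CPM. In each of these genes a single library, the one with both agents, stood above the other 3, and none passed (adjusted p = 0.17, 0.42 and 0.23). Col1a1 and Col1a2, the chains of type I collagen, were abundant everywhere. Col1a1 was at 27700 and 36000 CPM, then 34800 and 45500 CPM, a log2 difference of 0.38 ± 0.38 (adjusted p = 0.62 in edgeR). Its pair ratios were 0.38 and 0.39, so this SE is not their disagreement alone.

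The osteoblast transcription factors were slightly higher as a group without any of them passing. All 12 were tested, 9 were higher in both pairs and 2 lower in both, with a median of 0.32. By edgeR 0 of 12 were called, 7 had an unadjusted p under 0.05, and DESeq2 called 3 higher and 1 lower. Sp7, required for osteoblast formation, was at 93.3 CPM with vehicle, 218 CPM with BMP2, 223 CPM with GSK126 and 366 CPM with both, a log2 difference of 0.97 ± 0.15 (adjusted p = 0.064). Dlx5, a homeobox factor induced by BMPs, was at 19.8 and 32.0 CPM, then 36.8 and 50.6 CPM (0.57 ± 0.10, adjusted p = 0.070). Sp7 and Dlx5 came close to the threshold, and both passed in DESeq2. Runx2, the master regulator of the lineage, differed by only 0.31 ± 0.12 (adjusted p = 0.24), from 241 to 331 CPM without GSK126 and from 323 to 362 CPM with it. Zfp521, a zinc finger protein that restrains RUNX2, was lower in both pairs, at 84.4 and 58.7 CPM, then 55.9 and 34.9 CPM (adjusted p = 0.060).

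The direct targets of BMP signalling did not move as a group across both pairs on day 6. Of 14 BMP-SMAD target genes 13 were tested, with a median log2 fold change of 0.14; 4 were higher in both pairs and 3 lower in both. The pairs had different medians, -0.10 without GSK126 and 0.62 with it. The 1 called gene was Id4, which fell, and it was 7.69% of the list beside 1.31% of all genes in that direction. DESeq2 called 2 higher and 1 lower, the fit of 8 libraries 4 and 2, and the fit of 12 libraries 3 and 1. Id4, like its relatives an inhibitor of basic helix-loop-helix factors, was at 20.9 CPM with vehicle and 3.91 CPM with BMP2, then 10.4 and 3.68 CPM (-1.96 ± 0.25, adjusted p = 0.048). With the 5 CPM filter Id4 missed the threshold (adjusted p = 0.053), and no member of the list was called. Id1, the classical early target, was low in all 4 libraries, at 1.25, 0.863, 0.841 and 1.66 CPM, and its pair ratios were -0.53 and 0.96. Id2 and Id3 also had the higher ratio in the GSK126 pair, -0.83 and 0.74 for Id2 and 0.39 and 1.11 for Id3. Msx2, a homeobox gene, differed by -0.14 (adjusted p = 0.73).

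Hey1, a transcriptional repressor, was too low to be tested, with 1 read pair in vehicle and 25 with BMP2, and 4 with GSK126 and 34 with both. Lgr6, an R-spondin receptor, was likewise not tested, with 2, 4, 6 and 123 read pairs. Both BMP2 libraries were above their partners for Hey1, whereas for Lgr6 a single library held nearly all of the reads.

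Of 10 BMP ligand genes 3 were tested, and 1 of them, Gdf6, fell, beside 1.31% of all tested genes. DESeq2 and the fits of 8 and 12 libraries also called 1 ligand gene higher. Bmp2 itself had 3, 0, 4 and 2 read pairs in the vehicle, BMP2, GSK126 and combined libraries. Gdf6, a BMP family ligand of joints and skull, was at 43.0 CPM with vehicle and 14.1 CPM with BMP2, then 39.5 and 8.54 CPM with GSK126 (-1.91 ± 0.17, adjusted p = 0.031). Its levels without BMP2 were close to each other and far above both BMP2 libraries. Bmp4 was nearly level (44.3, 44.1, 50.8 and 61.9 CPM), and Bmp8a was higher in both pairs from a low base, 0.606 to 1.29 CPM and 2.50 to 7.23 CPM (adjusted p = 0.068).

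At the median, receptors and Smads were close to level. Of 15 genes 12 were tested, with a median of 0.03. The type I receptor Bmpr1a differed by -0.02 ± 0.10, the type II receptor Bmpr2 by 0.07 ± 0.09 and the signal transducer Smad5 by 0.16 ± 0.09. Rgma, a BMP co-receptor, fell from 17.6 to 7.69 CPM and from 11.3 to 5.75 CPM (-1.09 ± 0.12, adjusted p = 0.041). It was the only member of the list that passed, beside 1.31% of all tested genes that fell. In the list 3 members had an unadjusted p under 0.05, and the range was -1.09 to 0.73. The fits of 8 and 12 libraries each called 2 members higher and 1 lower.

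Of 15 BMP antagonists and feedback inhibitors 14 were tested, with a median of 0.18, and 1 fell, beside 1.31% of all tested genes. By edgeR 7 had an unadjusted p under 0.05, and the range was -0.9 to 1.47. DESeq2 called 2 higher and 2 lower, the fit of 8 libraries 4 and 3, and the fit of 12 libraries 3 and 1. Grem1, gremlin 1, a secreted antagonist of BMP2 and BMP4, fell from 65.7 to 43.1 CPM and from 67.0 to 39.4 CPM (-0.69 ± 0.09, adjusted p = 0.049). It missed the threshold with the 5 CPM filter and in the fit of all 12 libraries. Nog, noggin, was also lower in both pairs at low levels (3.49 to 1.93 CPM and 4.68 to 2.43 CPM, adjusted p = 0.096). Bambi, a decoy receptor, was higher in both, 3.26 to 13.3 CPM and 7.11 to 13.6 CPM (adjusted p = 0.088). The inhibitory Smads had ratios of opposite sign in the pairs. Smad6 was at 14.6 and 12.9 CPM, then 12.8 and 19.8 CPM (ratios of -0.18 and 0.62), and Smad7 had ratios of -0.10 and 0.37.

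The largest rises outside the bone list were in genes of several kinds. Col22a1, a collagen of tissue junctions, rose from 1.19 to 7.15 CPM and from 8.86 to 72.2 CPM, the largest fold change among called genes whose 4 libraries averaged 5 CPM or more (2.84 ± 0.14, adjusted p = 0.025). Cd244, known as a receptor of natural killer cells, rose from 0.731 to 6.29 CPM and from 3.26 to 15.2 CPM (2.62 ± 0.26, adjusted p = 0.035). Spns2, a sphingosine-1-phosphate transporter, rose from 3.28 to 23.2 CPM and from 25.7 to 84.6 CPM (2.24 ± 0.28, adjusted p = 0.048), and missed the threshold with the 5 CPM filter (adjusted p = 0.051). In all 3 genes the library with both agents was the highest and vehicle the lowest. Fabp3, a fatty acid carrier, rose by 1.62 ± 0.18 and Rhbdl2, a rhomboid protease, by 1.48 ± 0.18 on the log2 scale. Megf10, an engulfment receptor, rose from 15.6 to 44.3 CPM and from 63.8 to 188 CPM, and Rab27b, a GTPase of vesicle secretion, from 7.08 to 20.0 CPM and from 11.6 to 31.2 CPM.

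Signalling and stress genes made smaller rises. Ptgs2, the inducible cyclooxygenase, rose from 5.51 to 11.5 CPM and from 10.0 to 24.5 CPM (1.18 ± 0.11, adjusted p = 0.035). Timp1, an inhibitor of matrix metalloproteinases, rose from 69.1 to 154 CPM and from 141 to 302 CPM (1.13 ± 0.09, adjusted p = 0.027). In both genes the step was similar in the 2 pairs. Of 11 TGF-beta ligands and targets, Tgfb1 (40.5 to 79.0 CPM and 75.1 to 129 CPM) and Skil, a SMAD-binding repressor (11.3 to 23.4 CPM and 23.9 to 41.0 CPM), rose. In the same list the receptors Tgfbr2 (301 to 176 CPM and 179 to 114 CPM) and Tgfbr3 (53.1 to 30.5 CPM and 33.6 to 21.4 CPM) fell. Over all tested genes 0.522% rose and 1.31% fell. Ddit3, the stress factor CHOP, was the 1 of 11 stress response genes that rose (22.0 to 36.4 CPM and 59.7 to 90.3 CPM, 0.66 ± 0.09, adjusted p = 0.050, which is under the threshold before rounding). With the 5 CPM filter it missed the threshold (adjusted p = 0.054), which left 0 of the 11 called by edgeR, while DESeq2 called 3 higher and 1 lower.

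Under the same limit on the average, the largest fall was in Ngfr, the p75 neurotrophin receptor and a surface marker of skeletal progenitors. Ngfr was at 62.3 CPM with vehicle and 0.964 CPM with BMP2, and at 28.6 CPM with GSK126 and 1.25 CPM with both. Both BMP2 libraries were near the filter level while both partners were well above it. The fitted log2 fold change was -5.22 ± 0.39 (adjusted p = 0.027). Gfra2, the receptor for neurturin, fell from 97.7 to 25.7 CPM and from 57.6 to 7.85 CPM (-2.39 ± 0.25, adjusted p = 0.039). Only 3 of 10 neurotrophin and GDNF receptor genes were expressed enough to be tested, and 2 of them fell, beside 1.31% of all tested genes.

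**Figure D3:**
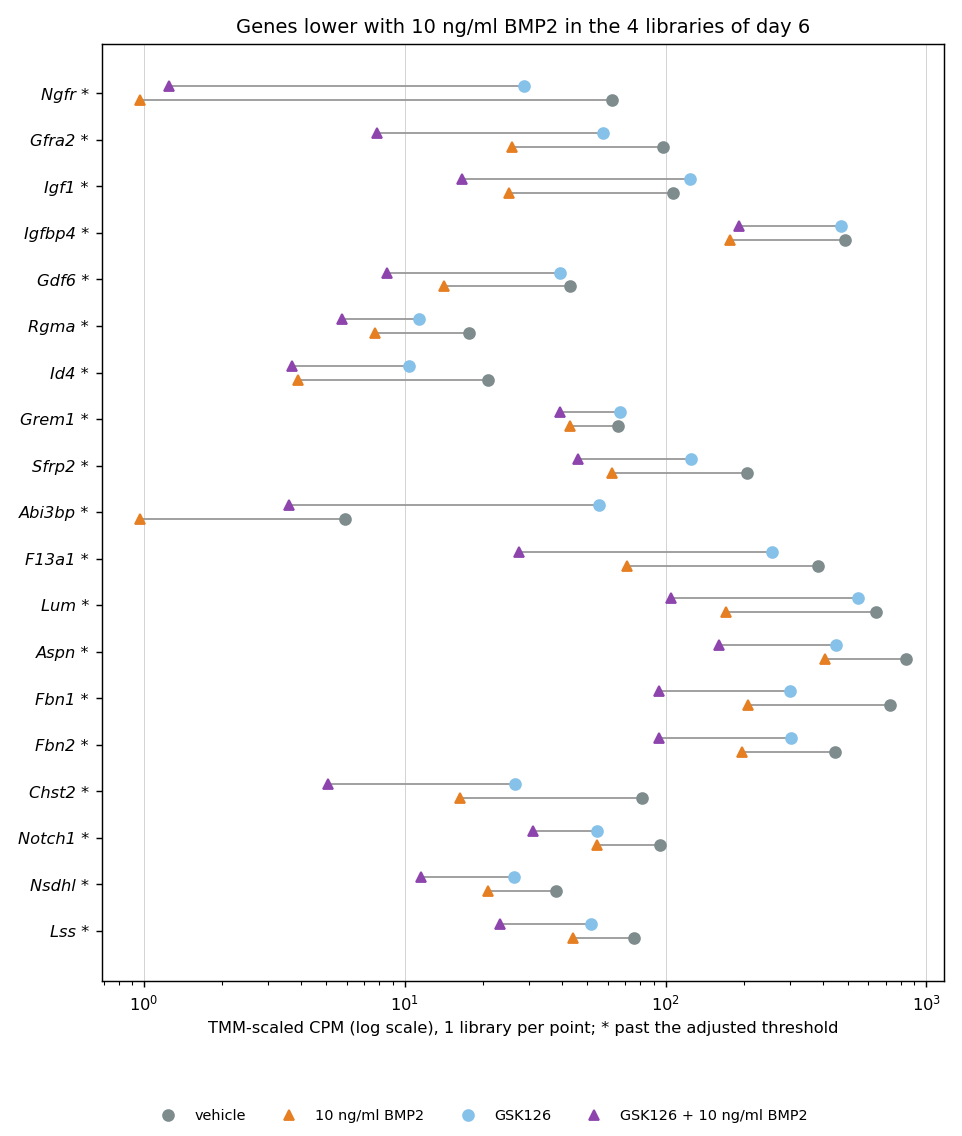
TMM-scaled CPM (x axis, log scale) for 19 genes that fell with 10 ng/ml BMP2 on day 6, 1 point per library and no replicates, with a line joining each library without BMP2 to its BMP2 partner. In every line the BMP2 library is on the left, as for Ngfr, from 62.3 to 0.964 CPM and from 28.6 to 1.25 CPM.

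The IGF axis was lower in part. Of 11 genes 10 were tested, with 6 lower in both pairs and 2 higher in both. Of the 10, 3 fell (30%, beside 1.31% of all genes) and the median was -0.53. Igf1, a growth factor that osteoblasts secrete, was at 107 CPM with vehicle and 25.2 CPM with BMP2, then at 124 and 16.6 CPM with GSK126. Igf1 without BMP2 was alike with and without GSK126, and the fitted log2 fold change was -2.50 ± 0.22 (adjusted p = 0.031). Igf2 fell from 4.43 to 2.13 CPM and from 13.7 to 5.17 CPM, and Igfbp4, a binding protein that holds IGFs away from their receptor, from 488 to 176 CPM and from 472 to 192 CPM. Igf2 missed the threshold with the 5 CPM filter, which left 2 of 9 tested genes called. The receptor genes Igf1r and Igf2r differed by -0.20 and 0.06 and did not pass. Igfbp5, a binding protein stored in bone matrix, was lower in both pairs (90.6 to 13.6 CPM and 45.4 to 17.7 CPM, adjusted p = 0.072), and Igfbp6 higher in both (0.75 ± 0.11, adjusted p = 0.058).

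Enpep, a membrane aminopeptidase under the mean of 5 CPM that was picked out after its values were seen, had 284 and 272 read pairs in the libraries without BMP2 and 6 in each BMP2 library (-5.46 ± 0.26, adjusted p = 0.025).

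Several other large falls were in genes of unlike function. F13a1, the A chain of coagulation factor XIII, a transglutaminase that osteoblasts make, fell from 384 to 70.9 CPM and from 255 to 27.5 CPM (-2.82 ± 0.22, adjusted p = 0.027). Apod, a lipid-binding protein, fell from 40.0 to 7.48 CPM and from 23.4 to 3.07 CPM (-2.67 ± 0.16, adjusted p = 0.025). In both genes vehicle was the highest library and the one with both agents the lowest. Abi3bp, an extracellular matrix protein, had a different base: 5.91 and 0.964 CPM without GSK126, but 55.6 and 3.61 CPM with it. Reps2, an endocytosis adaptor, also had the higher levels in the GSK126 pair (17.1 to 2.64 CPM against 8.96 to 1.47 CPM). Chst2, a sulfotransferase, went from 81.3 to 16.3 CPM and from 26.4 to 5.07 CPM, and Nhsl2 from 15.3 to 2.00 CPM and from 6.30 to 1.00 CPM.

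Some members of 3 lists of matrix genes fell, beside 1.31% of all tested genes in that direction. Of 10 tested small leucine-rich proteoglycans 3 fell, with a list median of -0.23, of 14 elastic fibre genes 2 and of 12 other collagens 3. Lum, lumican, which regulates collagen fibril width, was at 639 CPM with vehicle and 171 CPM with BMP2, then 549 and 105 CPM (-2.14 ± 0.16, adjusted p = 0.027). Aspn, asporin, fell from 837 to 409 CPM and from 449 to 161 CPM (-1.26 ± 0.15), and Podn, podocan, from 16.5 to 9.84 CPM and from 24.1 to 11.9 CPM (-0.89 ± 0.11). Aspn missed the threshold in the fit of all 12 libraries, and Podn with the 5 CPM filter.

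Of 14 tested elastic fibre genes 8 were lower in both pairs and 3 higher in both, with a median of -0.44, and 2 fell. Fbn1, fibrillin 1, the main protein of microfibrils, was at 729 and 208 CPM, then 301 and 94.5 CPM (-1.74 ± 0.10, adjusted p = 0.025). Fbn2, fibrillin 2, was at 445 and 196 CPM, then 304 and 94.5 CPM (-1.43 ± 0.15, adjusted p = 0.039). Elastin itself, Eln, was low without GSK126 (1.29 and 0.507 CPM) and higher with it (29.2 and 5.71 CPM), lower with BMP2 in both, and missed the threshold (adjusted p = 0.051). Lox, which crosslinks collagen and elastin, went the other way in both pairs, 332 to 758 CPM and 674 to 860 CPM, without passing (adjusted p = 0.17).

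Of 12 tested collagens of a list besides type I, 3 fell and 8 were lower in both pairs, with a median of -0.66. Col22a1, which rose by 2.84 ± 0.14 on the log2 scale, was not on that list. Col16a1 fell from 548 to 211 CPM and from 304 to 132 CPM (-1.29 ± 0.10). Col5a3 fell from 268 to 124 CPM and from 154 to 68.5 CPM (-1.14 ± 0.09), and Col8a1 from 779 to 359 CPM and from 716 to 365 CPM (-1.04 ± 0.11). The fibrillar type I chains, given above, went the other way in both pairs without passing. Among 8 tested contractile genes of smooth muscle, 6 were lower in both pairs and 2 fell, beside 1.31% of all tested genes. Tpm2, a tropomyosin, fell from 101 to 56.7 CPM and from 67.7 to 31.8 CPM. Lmod1, an actin nucleator, fell from 41.0 to 24.6 CPM and from 19.7 to 10.5 CPM. Acta2, smooth muscle actin, was lower in both (1240 to 998 CPM and 602 to 357 CPM, adjusted p = 0.17).

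Genes of cholesterol synthesis were lower in nearly the whole pathway. All 21 listed genes were tested, 18 were lower in both pairs and 1 higher in both, and the median was -0.83 (-0.61 without GSK126 and -1.05 with it). Of these, 5 fell (23.8%, beside 1.31% of all genes): Tm7sf2, Nsdhl, Lss, Pmvk and Insig1. Lss, which closes the sterol ring, was at 75.5 and 44.0 CPM, then 51.6 and 23.2 CPM (-0.96 ± 0.12, adjusted p = 0.048). It missed the threshold with the 5 CPM filter, which left 4 called. Nsdhl, a sterol dehydrogenase, fell from 38.0 to 20.9 CPM and from 26.3 to 11.5 CPM (-1.03 ± 0.11, adjusted p = 0.041), and the sterol reductase Tm7sf2 from 8.23 to 3.32 CPM and from 5.58 to 2.16 CPM. Dhcr7, which makes the last step to cholesterol in 1 branch, was higher in both pairs (0.37 ± 0.11, adjusted p = 0.17). DESeq2 called 18 of the 21 lower.

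**Figure D4:**
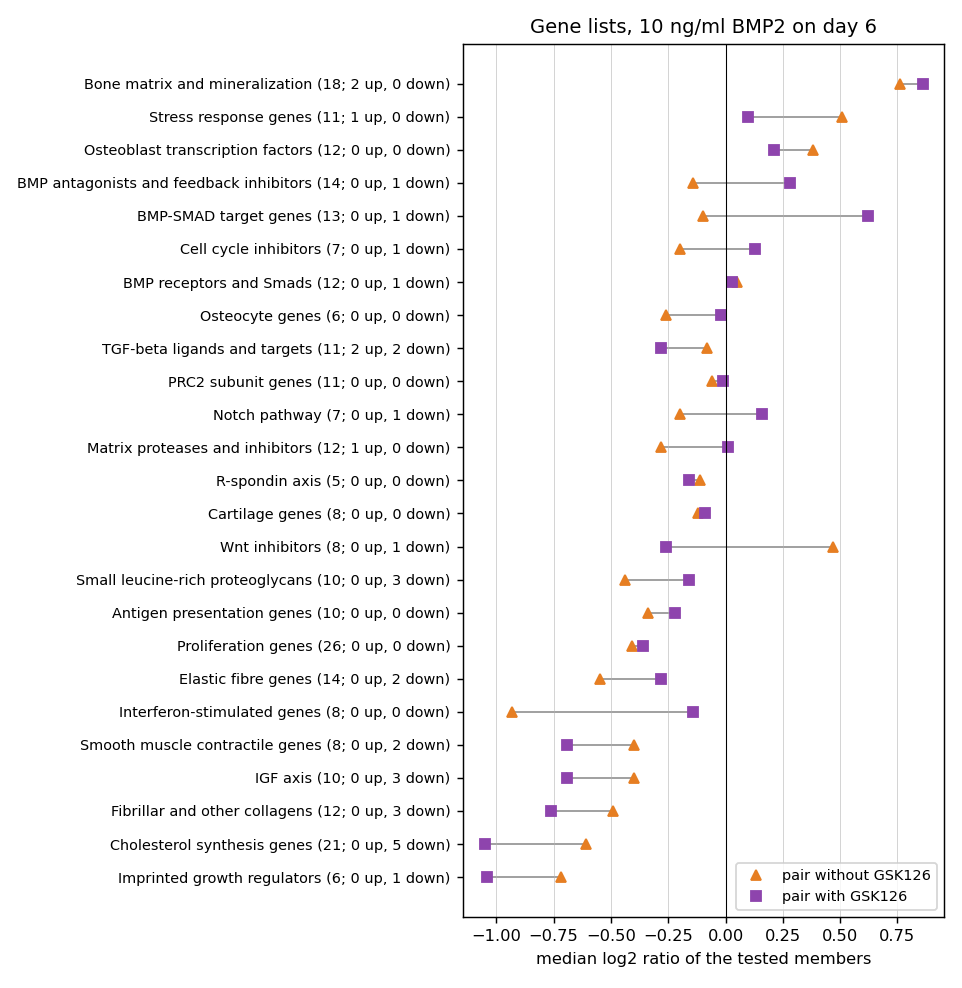
Median log2 ratio of 10 ng/ml BMP2 over none on day 6 over the tested members of each gene list with 5 or more of them, in the pair without GSK126 (triangles) and the pair with it (squares), with the number tested and the numbers called beside each name. Bone matrix lies farthest right at 0.76 and 0.86 and cholesterol synthesis far left at -0.61 and -1.05, while BMP-SMAD targets lie on opposite sides of 0.

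Proliferation genes were slightly lower, without any of them passing. Of 26 tested genes 21 were lower in both pairs and 3 higher in both, the median was -0.41 and the range -0.54 to 0.16. By edgeR 0 were called, 15 had an unadjusted p under 0.05, and DESeq2 called 11 lower. Mki67, the Ki-67 proliferation antigen, was at 280 and 190 CPM, then 121 and 85.7 CPM (-0.53 ± 0.09, adjusted p = 0.066). The mitotic genes Ccnb1, Plk1 and Kif11 were similar at -0.50, -0.50 and -0.52. The genes of DNA replication, picked out after their values were seen, were near level: Mcm2 was at 0.08, Mcm3 at -0.02 and Pcna at 0.16. Of 7 tested cell cycle inhibitors 1 fell, beside 1.31% of all tested genes. Cdkn2c, an inhibitor of CDK4 and CDK6, fell from 47.9 to 22.3 CPM and from 26.2 to 13.6 CPM (-1.03 ± 0.09, adjusted p = 0.031).

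The lists of Wnt inhibitors and Notch genes had 1 called member each, both lower, beside 1.31% of all tested genes. Of 8 tested Wnt inhibitors Sfrp2, a secreted frizzled-related protein, fell from 206 to 62.6 CPM and from 125 to 46.2 CPM (-1.58 ± 0.11, adjusted p = 0.027). Wif1, another secreted Wnt inhibitor, was higher in both pairs but unevenly, 3.99 to 107 CPM and 42.6 to 97.2 CPM (adjusted p = 0.20). Notch1, a receptor, fell from 95.3 to 54.7 CPM and from 54.6 to 31.1 CPM (-0.81 ± 0.08, adjusted p = 0.039), and missed the threshold in the fit of all 12 libraries. Tnfrsf11b, osteoprotegerin, the decoy receptor for the osteoclast factor RANKL, was at 70.0 and 530 CPM without GSK126 and 416 and 560 CPM with it (adjusted p = 0.25). Mmp13, a collagenase of late osteoblasts, moved in opposite directions, 12.9 to 0.913 CPM and 26.0 to 31.3 CPM. Of 6 tested imprinted growth genes 5 were lower in both pairs, and besides Igf2, H19 came close (3.11 to 1.29 CPM and 17.1 to 4.32 CPM, adjusted p = 0.051).

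Interferon-stimulated genes set the vehicle library apart. Oasl2 had 160 read pairs with vehicle and 11, 34 and 16 in the BMP2, GSK126 and combined libraries, and Oas2 133 against 3, 16 and 9. Neither reached the filter, since 1 library alone was above 1 CPM. Of 8 tested genes of the list 0 passed in edgeR, 4 had an unadjusted p under 0.05, DESeq2 called 1 lower, and the medians of the pairs were -0.93 without GSK126 and -0.14 with it. The part of this difference in the results of the pair without GSK126 was not tested.

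Levels of markers of other cell types differed by list. Summed leukocyte markers were between 3.88 and 5.01 CPM in the 4 libraries, with 3 of 8 genes at 0 in all of them, and skeletal muscle markers between 0.656 and 1.19 CPM. Only 1 of the 8 leukocyte markers was expressed enough for the test, and which cells the RNA of Cd244, named above, came from was not tested. Osteoclast markers summed to 187, 184, 231 and 266 CPM in the order vehicle, BMP2, GSK126 and both, nearly all of it Ctsk, with 2 of 6 genes at 0 in all libraries. Neuronal markers summed to 17.3, 74.8, 50.7 and 55.9 CPM, most of it Tubb3, a tubulin, at 9.94, 71.1, 45.8 and 52.6 CPM. Endothelial markers summed to 0.856 CPM with vehicle, 2.31 with BMP2, 2.50 with GSK126 and 8.12 with both. Nearly all of that was Vwf, von Willebrand factor, which rose (0.773, 2.26, 2.41 and 8.10 CPM, 1.65 ± 0.19, adjusted p = 0.043). Cartilage genes summed to 164, 291, 512 and 1020 CPM, with 0 of 8 tested genes passing in edgeR, 4 at an unadjusted p under 0.05, and 3 higher and 1 lower by DESeq2. The median log2 fold change of these 8 was -0.15, with 3 higher in both pairs and 4 lower in both. The sum therefore does not stand for the list. Keratinocyte markers summed to 63.5, 175, 529 and 961 CPM, smooth muscle markers to 3250, 2510, 1940 and 1270 CPM. Their part in the results above was not tested.

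On day 1 the same dose had given other sizes of response for many of these genes. The difference between the days was tested with the 4 matching day 1 libraries, in a fit of 8 libraries with 2 residual degrees of freedom and 11962 genes. The BMP2 effect was more positive on day 6 for 71 genes (0.594%) and more negative for 149 (1.25%), 220 in all (1.84%). These counts rest on all 8 libraries: with any 1 day 1 library left out they were 0 and 1, and with any 1 day 6 library left out 1971 to 2257 and 1908 to 2324. The fit held a single spread for both days. With a day 1 library left out day 6 alone set the spread, and with a day 6 library left out day 1 alone. Whether the days share a spread was not tested, and the 71 and 149 genes depend on it. Of the 61 genes higher on day 6, 42 (68.9%) were already higher in both day 1 pairs and 15 (24.6%) lower in both. Of the 153 genes lower on day 6, 103 (67.3%) were lower in both day 1 pairs and 35 (22.9%) higher in both. Over all tested genes 37.6% were higher and 36.2% lower in both day 1 pairs. The called genes had smaller steps on day 1, with median ratios of 0.33 and 0.21 in the day 1 pairs for the higher genes against 1.07 and 0.98 on day 6, and of -0.16 and -0.19 for the lower genes against -1.13 and -1.16.

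**Figure D5:**
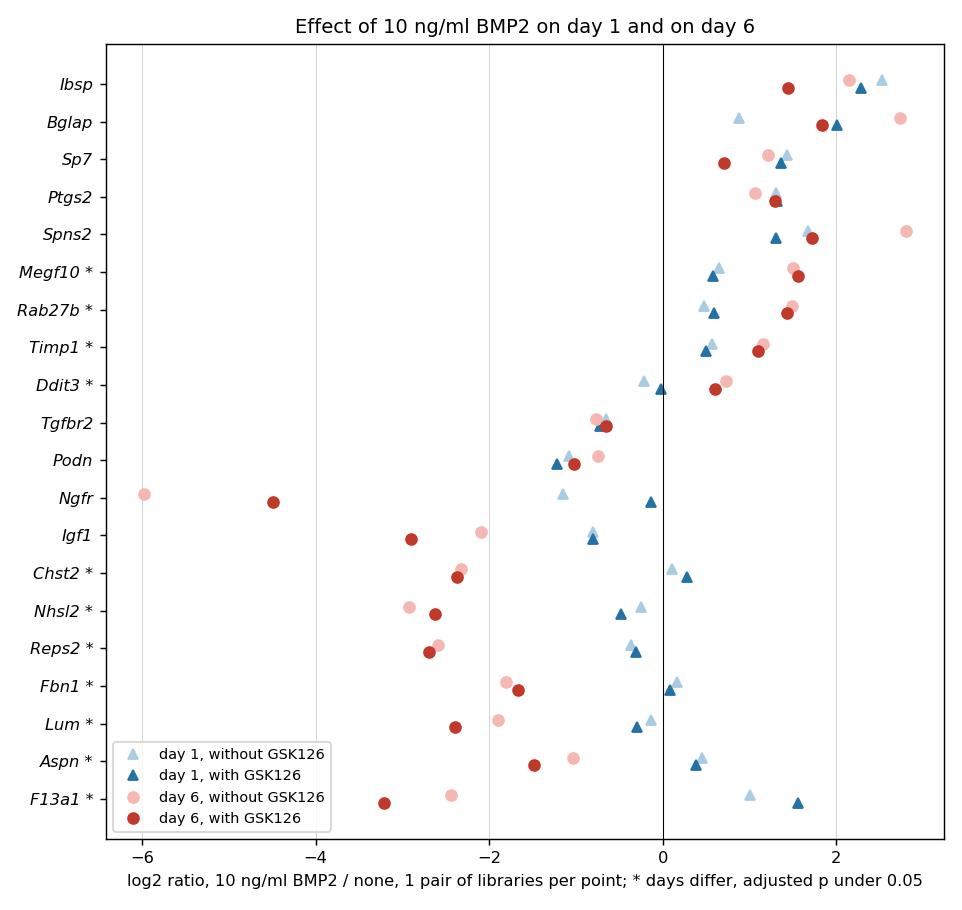
Log2 ratio of 10 ng/ml BMP2 over no BMP2 on day 1 and on day 6 for 20 named genes, in the pair without and the pair with GSK126, 1 point per pair and a star where the days differ. F13a1 was above 0 in both day 1 pairs (1.01 and 1.56) and far below 0 on day 6, while Ibsp was above 0 on both days.

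Named genes fell into those already moved on day 1 and those that were not. Ibsp had day 1 ratios of 2.53 and 2.29, above its day 6 ratios of 2.15 and 1.45, and Sp7 had 1.43 and 1.36. Ptgs2 (1.31 and 1.32), Tgfbr2 (-0.65 and -0.72) and Podn (-1.08 and -1.22) also had day 1 ratios close to those of day 6. F13a1 went the other way on day 1, with ratios of 1.01 and 1.56, and the difference between the days passed the test (-4.19 on the log2 scale). Aspn was likewise higher on day 1 (0.45 and 0.38) and lower on day 6. Fbn1 (0.17 and 0.08) and Chst2 (0.11 and 0.28) were near level on day 1, and the difference between the days passed for both, at -1.86 and -2.54.

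The 50 ng/ml libraries of day 6 were set against the same vehicle and GSK126 libraries, so their ratios share controls with those above and are given only side by side. Ngfr had log2 ratios of -7.15 without GSK126 and -6.06 with it at 50 ng/ml, where 10 ng/ml gave -5.98 and -4.49. Igf1 was at -5.01 and -5.49 against -2.09 and -2.90, and Gdf6 at -4.86 and -4.12 against -1.61 and -2.21. Bglap was at 5.35 and 3.11 against 2.74 and 1.84, Ibsp at 3.31 and 1.70 against 2.15 and 1.45, and Sp7 at 2.41 and 1.28 against 1.22 and 0.71. In these genes the ratio at 50 ng/ml lay farther from 0 in both pairs, but not in every named gene. With GSK126, Col22a1 was at 2.18 at 50 ng/ml against 3.02 at 10 ng/ml, Chst2 at -2.04 against -2.37 and Nhsl2 at -2.21 against -2.62, Spns2 at 1.62 against 1.72 and Col5a3 at -0.97 against -1.17. Without GSK126, Lum was at -1.89 against -1.90. The sterol genes in that pair were Pmvk at -0.56 against -0.82, Nsdhl at -0.72 against -0.86, Lss at -0.75 against -0.78 and Tm7sf2 at -1.24 against -1.3. With GSK126, Lss (-1.02 against -1.15) and Tm7sf2 (-1.26 against -1.36) were also closer to 0 at 50 ng/ml. Nsdhl (-1.42 against -1.19) and Pmvk (-0.73 against -0.69) were farther from 0 there. Id1 and Smad6, which had ratios of opposite sign in the pairs at 10 ng/ml, were at 1.68 and 2.92 and at 1.57 and 2.20 at 50 ng/ml.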

How the data were processed

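Polyadenylated RNA of MC3T3 sc4 cells was sequenced, 1 library per condition. The deposited table holds counts per gene and the authors' RPKM for each library; per the submitters' processing notes, reads were handled with bcl2fastq, TopHat2 2.0.6 and HTSeq on mm10. Neither strand setting nor gene annotation is stated (not given in the sources used here), so antisense and overlapping genes cannot be told apart. Of 195176 counts above 0 in the 12 libraries, 0 were odd. Halving the counts of the 4 libraries gave 64 and 160 calls. Of 23358 rows, 69 share a name. Genes with at least 1 CPM in 2 of 4 libraries were tested with edgeR 4.0.16 (quasi-likelihood, TMM, GSK126 as covariate, R 4.3.3), Benjamini-Hochberg adjusted over all tested genes at 0.05. Pair ratios use a prior count of 2. Nothing states separate cultures behind the libraries, so p-values rest on the disagreement of these pairs, drawn toward a trend over genes. Alternatives used DESeq2 1.42.0, limma 3.58.1, other filters, scalings and libraries. The fit was tested on simulated data of the day 6 comparison (11686 genes, 200 changed). It recovered 22.4%, 91% and 98.5% of genes changed by 0.5, 1 and 2 on the log2 scale, with 8 false of 149 calls. The simulation gave genes of like level the same spread, and each changed gene the same change in both pairs. Genes whose pairs differ, or with a spread of their own, were not covered by it. Named were, per direction, the 10 called genes of largest fold change with a mean of at least 5 CPM, up to 4 called members per gene list and a panel of osteoblast and BMP genes; some genes that met the rule are not reported here. The members and lists were chosen with earlier results of these data known. Read pair counts of 3 or fewer correspond to at most 0.0761 CPM. Promoters were matched to RefSeq by symbol.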

Additional observations from a re-analysis of the deposited data

Results flagged for a closer look

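At 10 ng/ml, the BMP2 effect differed between day 6 and day 1 by the edgeR test of the difference for 71 genes in the positive direction and 149 in the negative. That test takes the spread to be the same on both days, which was not tested. The values below are the day 6 effect minus the day 1 effect on the log2 scale, for genes named here that passed that test.

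Matrix genes were lower on day 6 relative to day 1: Fbn1 by -1.86, Lum by -1.92, Aspn by -1.67, Col5a3 by -1.23, Col16a1 by -0.91 and Col8a1 by -0.89. F13a1 had the largest difference, -4.19, followed by Chst2 at -2.54, Nhsl2 at -2.41 and Reps2 at -2.31. Signalling genes were at -1.37 for Sfrp2, -1.17 for Igfbp4 and -0.51 for Notch1, and the cell cycle inhibitor Cdkn2c at -0.72. The sterol genes Tm7sf2, Nsdhl and Pmvk were at -1.11, -1 and -0.61, and the tropomyosin Tpm2 at -0.89. In the positive direction were Rab27b at 0.93, Megf10 at 0.92, Ddit3 at 0.78 and Timp1 at 0.60. Megf10 had been higher on day 1 too, with ratios of 0.65 and 0.58, and Ddit3 had ratios of -0.22 and -0.02.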

How the results depend on the processing

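The direction of every named gene held in every alternative fit, while the counts depended on the libraries that set the spread. Against 61 higher and 153 lower genes, DESeq2 called 396 and 543, library size scaling 111 and 365 (it shifts the median of all genes by -0.07), no low count filter 276 and 457, and a filter of 5 CPM 40 higher. The 6 day 6 libraries gave 1 and 10, the 8 libraries of both days 762 and 972, and all 12 libraries 576 and 817. All 61 and 153 genes stayed called under DESeq2, library size scaling, no filter, limma-voom and halved counts, and 61 and 152 of them with 8 libraries. At least 2-fold in both pairs were 69 higher and 137 lower genes; 1.5-fold gave 214 and 365, a filter of 5 CPM 34 and 78, the pair without GSK126 alone 281 and 300, and the pair with it 118 and 241. The day difference gave 229 more negative genes with library size scaling. Leaving out each of the 8 libraries in turn, an alternative chosen after seeing the data, gave 0 to 2257 more positive and 1 to 2324 more negative genes. It gave 0 and 1 whichever day 1 library was left out. Among named genes, 45 lost their call with the 6 libraries. No fit remains when 1 of the 4 libraries is left out, so each pair's ratio stands for it. No paired analysis was possible because the labels give no replicate numbers, beyond the match by GSK126 that the covariate of the main test already holds.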

Other observations

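Accn1 (chr11:80880165-81968396), an acid-sensing ion channel gene, had 2278 read pairs with vehicle, 5277 with 10 ng/ml BMP2, 0 with GSK126 and 5632 with both agents. It was not called (adjusted p = 0.36), and the day 1 libraries and the day 6 library of 50 ng/ml without GSK126 also held 0.

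Immune receptor genes besides Cd244 included Il2rg, the common cytokine receptor chain, which rose from 0.125 to 1.12 CPM and from 0.259 to 2.14 CPM (3.08 ± 0.30, adjusted p = 0.036). Its mean was under 5 CPM, and it was picked out after its values were seen.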
